A study of Arabidopsis thaliana with 2 samples.

Results

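Of 40612 listed SNP positions in the progeny of an Arabidopsis thaliana mapping cross, 704 (1.73%, exact binomial 95% interval 1.61 to 1.87) had no other listed SNP within 10 kb on either side. These isolated SNPs were chosen from the positions themselves: the distance to the previous and to the next listed SNP on the same chromosome each had to be over 10000 bp, and a missing neighbour at a chromosome end counted as over. Distances, local density and the order of chromosomes were therefore part of the choice and are given as a description, with no test. The place of a SNP relative to annotated genes did not enter the choice.

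Genomic DNA was sequenced from 2 pools of seedlings, 1 with the potent phenotype and 1 without it, so there are no replicates and no comparison between the phenotypes was possible. Both pools came from the progeny of the fifth cross of potent to the ecotype Landsberg erecta (Ler), of which about 200 seeds were sown. The dominant mutation potent arose in a Col-0 line with the reporters pSCR::ER-GFP, pWOX5::ER-YFP and DR5::Luciferase after treatment with 50 mM ethyl methanesulfonate (EMS) for 12 hours, and was crossed 6 times to that parental line and kept heterozygous before the 5 crosses to Ler. The labels state no age for the seedlings. The positions form 1 list, titled as homozygous MT SNPs. The labels do not define MT, and no column names a pool, so the list was assigned to neither. Read depth and alleles are unknown, so nothing separates a natural Col-0 to Ler difference from a change made by EMS or a calling error, and a SNP inside a gene is no evidence that the gene was altered.

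Natural accessions such as Col-0 and Ler differ at many sites along every chromosome, so sequence inherited from Ler carries SNPs close together when read against the Col-0 reference. Sequence that stayed Col-0 carries few, and EMS, which mainly turns G:C into A:T pairs, adds single changes spread over the genome. In a backcrossed line, long Col-0 and Ler stretches alternate, with their borders set by meiotic crossovers.

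Isolated SNPs were unevenly shared among the chromosomes. Chromosome 1 held 236 of them, or 33.5% of all isolated SNPs (30 to 37.1), although it held 12.4% of all listed SNPs. Chromosome 5 held 146, chromosome 4 held 142, chromosome 3 held 123 and chromosome 2 held 57, or 8.1% (6.19 to 10.4) of the isolated SNPs against 16.8% of all listed SNPs. Among the SNPs of its own chromosome, the isolated share was 4.7% on chromosome 1, 1.96% on chromosome 4, 1.26% on chromosome 5, 1.24% on chromosome 3 and 0.837% on chromosome 2. Per Mb of sequence up to the last listed position, chromosomes 1 and 4 were close, with 7.76 (exact Poisson 95% interval 6.8 to 8.81) and 7.65 (6.45 to 9.02) isolated SNPs. Chromosomes 5 and 3 followed with 5.42 (4.58 to 6.38) and 5.24 (4.36 to 6.26), and chromosome 2 had 2.89 (2.19 to 3.75). These intervals cover counting error only, linked SNPs are not independent, and no order of the chromosomes was tested.

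**Figure D1:**
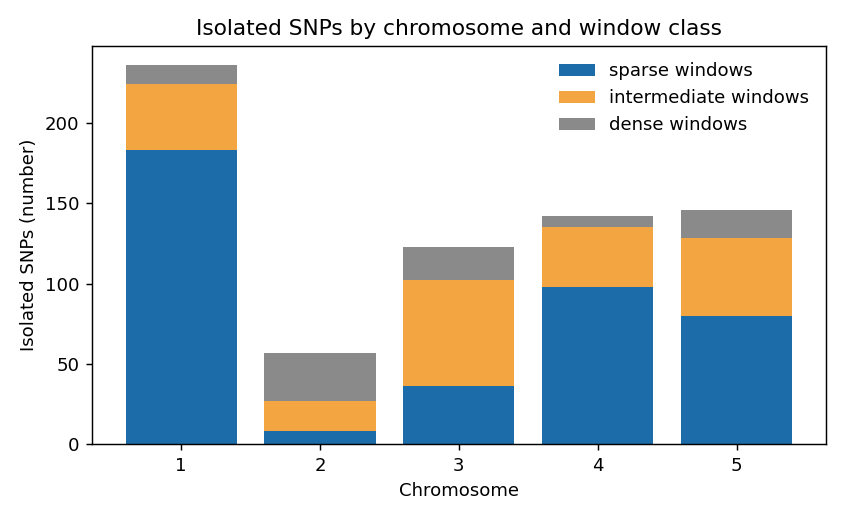
Number of isolated SNPs on each chromosome (bar height), split by the density class of the 500 kb window that holds them. Sparse windows supply 183 of the 236 isolated SNPs of chromosome 1 and 98 of the 142 of chromosome 4, whereas dense windows supply 30 of the 57 of chromosome 2.

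In windows of 500 kb, more isolated SNPs lay in sparse windows than in any other class. The genome was divided into 240 consecutive windows of 500 kb, of which the median window held 139 listed SNPs. Windows under 20% of that median were called sparse, windows at or above it dense and the rest intermediate. The 74 sparse windows held 2.56% of all listed SNPs and 405 isolated SNPs, or 57.5% (53.8 to 61.2) of these. The 46 intermediate windows held 211 isolated SNPs, or 30% (26.6 to 33.5). The 120 dense windows held 88.7% of all listed SNPs but only 88 isolated SNPs, or 12.5% (10.1 to 15.2). The sparse share depended on the settings. It was 21.7% with sparse set at under 10% of the median, which made the intermediate class the largest. When 5 kb without a neighbour sufficed it was 34.4%, close to the intermediate share of 33% and the dense share of 32.5%. It was 49% in 250 kb windows and 47.4% without chromosome 1.

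The isolated share in sparse windows was close on 4 of the 5 chromosomes. Among listed SNPs of sparse windows, 38.9% were isolated on chromosome 1, 40.4% on chromosome 3, 39% on chromosome 4 and 40.8% on chromosome 5. On chromosome 2, whose sparse windows hold 32 listed SNPs, 25% (11.5 to 43.4) were isolated. In dense windows the isolated share lay between 0.104% on chromosome 4 and 0.519% on chromosome 2.

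The number of isolated SNPs per window was highest at a low density and not at the lowest. Windows with 1 to 9 listed SNPs held 3.41 isolated SNPs on average, those with 10 to 19 held 6.39, those with 20 to 27 held 6.6 and those with 28 to 69 held 6.79. The mean was 3.04 in windows with 70 to 138 listed SNPs, 0.944 in those with 139 to 299 and 0.429 in those with 300 or more. The window with the most isolated SNPs, from 14500001 to 15000000 on chromosome 4, held 13 among 17 listed. In 8 windows every listed SNP was isolated: 6 lay on chromosome 1, 1 on chromosome 4 and 1 on chromosome 5. The window from 13500001 to 14000000 on chromosome 4 held 9 listed SNPs, all isolated, and the window from 24000001 to 24500000 on chromosome 5 held 8. No isolated SNP was present in 69 windows, 67 of them dense. The other 2 were a window of chromosome 1 with no listed SNP, from 18500001 to 19000000, and the shortened last window of chromosome 2, which held 8 listed SNPs.

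**Figure D2:**
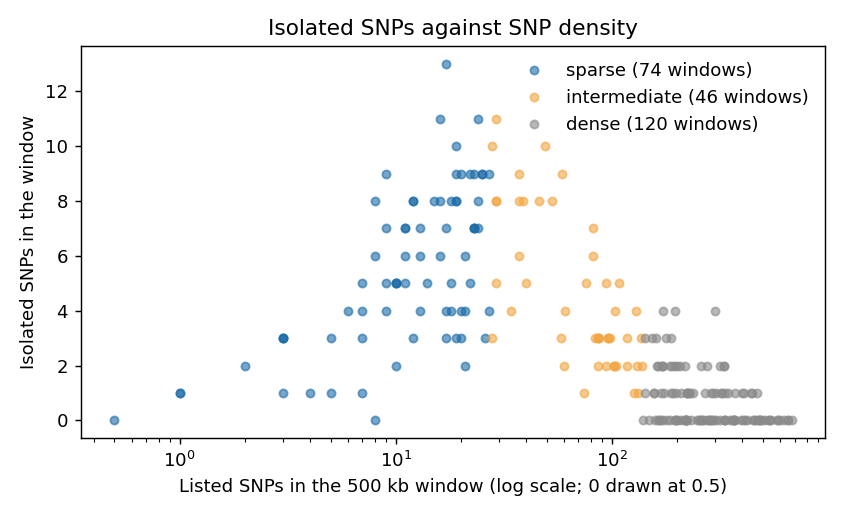
Isolated SNPs (vertical axis) against all listed SNPs (horizontal axis, log scale) in each 500 kb window, coloured by density class. The count climbs to 13 in a window with 17 listed SNPs and stays at 4 or below in all 120 dense windows.

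On a scale of several Mb, the long sparse stretches of chromosomes 1, 4 and 5 and the centromeric stretch of chromosome 3 carried most isolated SNPs. The first 21 Mb of chromosome 1 held 202, or 9.62 per Mb (8.34 to 11), against 34 in the rest of that chromosome, or 3.61 per Mb (2.5 to 5.04). Chromosome 4 held 130 beyond 10 Mb, or 15.2 per Mb (12.7 to 18), against 12 up to that point, or 1.2 per Mb (0.62 to 2.1). Chromosome 5 held 109 beyond 18 Mb, or 12.2 per Mb (10 to 14.7), against 37 before it, or 2.06 per Mb (1.45 to 2.83). On chromosome 3, 83 isolated SNPs lay between 10 and 17 Mb, or 11.9 per Mb (9.44 to 14.7), with 15 in the first 10 Mb and 25 beyond 17 Mb. Among these stretches the value was highest along chromosome 4 beyond 10 Mb. Its interval overlapped those of chromosome 5 beyond 18 Mb and of chromosome 3 between 10 and 17 Mb. Listed SNPs were scarcer in the first 21 Mb of chromosome 1 than on chromosome 4 beyond 10 Mb, with 26.9 per Mb against 49.8. The boundaries were set with the SNP densities known.

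The position relative to the centromere differed by chromosome. Within 2 Mb of the rounded centromere position lay 40.7% (31.9 to 49.9) of the isolated SNPs of chromosome 3, against 1.66% of its other listed SNPs. On chromosome 1 the shares were 13.1% (9.1 to 18.1) of isolated and 0.94% of other SNPs. The order was turned round on the other three chromosomes, with 15.8% (7.48 to 27.9) of isolated against 27.9% of other SNPs on chromosome 2, 2.82% (0.773 to 7.06) against 44.5% on chromosome 4 and 2.74% (0.751 to 6.87) against 28.6% on chromosome 5. Other listed SNPs were scarce near the centromeres of chromosomes 1 and 3 and frequent near the rest, and this density entered the choice of members.

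Of the isolated SNPs, 444 had their nearest listed SNP within 20 kb, and the longest distances were on chromosomes 1 and 5. The median distance to the nearest listed SNP was 16.4 kb, with quartiles of 12.2 and 27.4 kb. By chromosome it was longest on 1 and 5, at 18.8 and 18 kb, shorter on 4, at 15.4 kb, and shortest on 2 and 3, at 13.7 and 13.3 kb. The nearest SNP was over 20 kb away for 260 isolated SNPs, over 50 kb for 54 and over 100 kb for 16. Of these 16, 12 were on chromosome 1 and 4 on chromosome 5. Of the 50 with the greatest distance, all at 51.4 kb or more, 49 were in sparse windows, 30 were on chromosome 1 and 15 on chromosome 5. Gaps that adjoin an isolated SNP covered 19 Mb, or 62.6% of chromosome 1, but 2.6 Mb, or 13.2%, of chromosome 2.

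**Figure D3:**
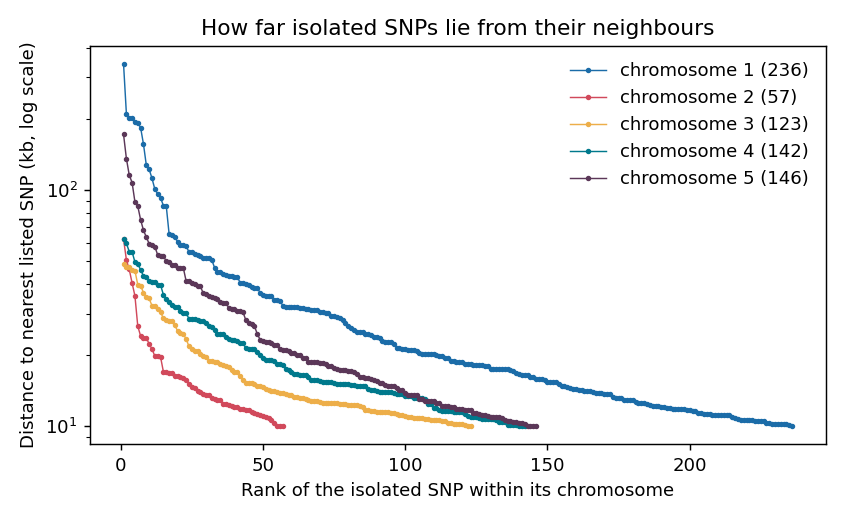
Distance from each isolated SNP to its nearest listed SNP (vertical axis, kb, log scale), ranked within its chromosome. The curve of chromosome 1 runs up to 342 kb and that of chromosome 5 to 172 kb, whereas chromosomes 2, 3 and 4 end at 62, 48.8 and 61.9 kb.

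Around the 10 kb threshold the choice turned on small distances. The last SNPs inside it had their nearest neighbour at 10013 bp, at position 457233 of chromosome 3 in AT3G02280, and at 10027 bp, at positions 1674754 and 1684781 of chromosome 5, which are each other's neighbour. The first SNPs outside it had theirs at 9981 bp, at position 11311982 of chromosome 1 in ECS1, at 9976 bp, at position 11515441 of chromosome 4 in CPL1, and at 9970 bp, at position 21300447 of chromosome 3 between annotated genes.

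The ranking of chromosomes changed with the distance required. With 1 kb on either side, chromosome 2 had the highest share of SNPs without a neighbour, 30.8%, and chromosome 1 followed with 27.6%. From 2 kb upwards chromosome 1 was highest, with 8.58% at 5 kb, 2.19% at 20 kb and 0.637% at 50 kb. Chromosome 2 was lowest at 10 kb and 20 kb, with 0.837% and 0.161%. Chromosome 3 had no SNP without a neighbour within 50 kb, and the 4 such SNPs at 200 kb were all on chromosome 1.

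**Figure D4:**
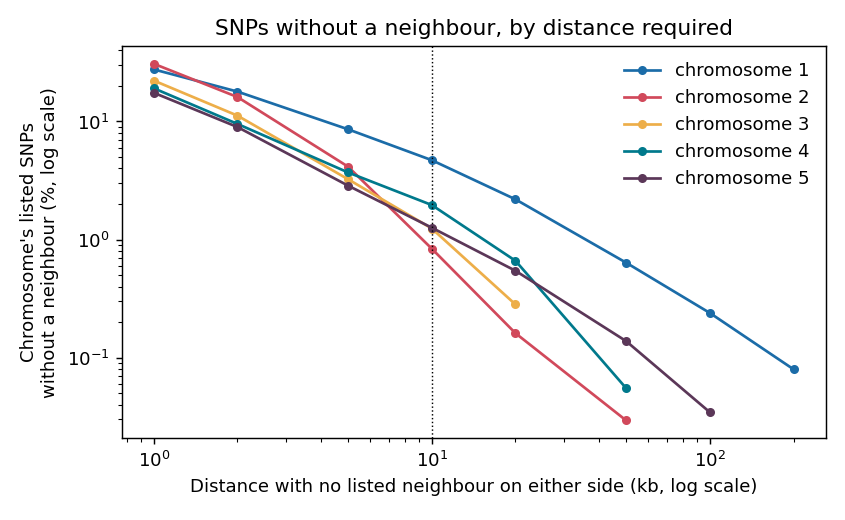
Share of the listed SNPs of each chromosome that had no listed neighbour on either side within the distance on the horizontal axis (both axes log scale; the dotted line marks 10 kb; shares of 0 are not drawn). The line of chromosome 2 starts highest, at 30.8%, and is lowest at 10 kb, at 0.837%.

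Isolated SNPs formed 1 end of a spectrum of group sizes. When neighbours at most 10 kb apart were joined, the list fell into 2181 groups, of which 704 (32.3%) were single SNPs, 323 (14.8%) were pairs, 562 held 3 to 9 SNPs and 592 held 10 or more. The largest group, on chromosome 5, held 1091 SNPs. Single SNPs made up 45.7% of the groups of chromosome 1 and 40.3% of those of chromosome 4, but 15.1% of those of chromosome 2. The members of a pair were a median of 2310 bp apart, and 58 of the 323 pairs (18%) were within 100 bp.

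Isolated SNPs often followed one another. The listed neighbour of an isolated SNP already meets the rule on the side they share, so runs are a description only. For 482 of the 704 (68.5%), the previous or the next listed SNP was itself isolated. The share was 76.1% on chromosome 4 and 75.4% on chromosome 1, but 33.3% on chromosome 2. Runs of 5 or more isolated SNPs in a row numbered 28 and held 189 isolated SNPs, with 13 runs on chromosome 1, 8 on chromosome 4, 5 on chromosome 5, 2 on chromosome 3 and 0 on chromosome 2.

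A pair of runs held 12 isolated SNPs each. On chromosome 4, 12 SNPs between 14601884 and 14999620 spanned 398 kb with 99 protein-coding genes, and 6 of them lay in such genes. One of these genes was ORC5, a subunit of the origin recognition complex that marks sites of replication start, and another was XTH18, of the xyloglucan endotransglucosylase family that remodels cell walls. On chromosome 5, 12 SNPs between 24036292 and 24842894 spanned 807 kb with 230 protein-coding genes, and 8 lay in such genes. They included NRPC1, a subunit of RNA polymerase III, PIP2;4, an aquaporin of the plasma membrane, and ABCA9, an ABC transporter. Naming these genes followed a look at their positions. The longest gap of chromosome 5, 282 kb, lay inside this run, between isolated SNPs at 24376562 in PIP2;4 and at 24658685 in AT5G61330.

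The run that covered the most sequence was on chromosome 1. Its 8 isolated SNPs lay between 18390817 and 20686422, a span of 2296 kb with 602 protein-coding genes, and were a median of 202 kb apart. The first pair, at 18390817 and 19398860, bordered the longest gap of the genome, 1008 kb, and both lay outside annotated genes. The SNP at 19641166 lay in AT1G52720. The last 4, at 20031697, 20233892, 20492806 and 20686422, lay between annotated genes. Of 18 gaps over 200 kb, this one included, 11 had an isolated SNP at both ends, 6 at 1 end and 1 at neither. Over all 2176 gaps over 10 kb, 15.6% had an isolated SNP at both ends, 33.4% at 1 end and 51% at neither. Any SNP that borders a gap over 10 kb already meets the rule on that side, so these counts are a description only. The longest gap of chromosome 3, 332 kb from 13587427 to 13919895, had none at either end. On chromosomes 2 and 4 the longest gaps, 177 and 221 kb, each started at an isolated SNP, at 3338190 and 12598832.

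The 10 isolated SNPs with the greatest distance to their nearest neighbour lay on chromosomes 1 and 5, all in sparse windows. The most isolated was at 14499895 on chromosome 1, near the centromere and outside annotated genes, 342 kb from the previous and 424 kb from the next listed SNP. The second, at 17837302 on chromosome 1 in AT1G48280, was 243 and 211 kb from its neighbours. Positions 20031697 and 20233892 of chromosome 1 were 202 kb from each other, and position 20492806 was 194 kb from its nearest neighbour. The SNP at 20233892 lay between BRX-LIKE3, of the BREVIS RADIX family named for a root growth regulator, and AT1G54200. The SNP at 6457704, 193 kb from its nearest neighbour, lay between MYB47, a MYB transcription factor, and AT1G18720. The SNPs at 19641166 in AT1G52720 and at 5945284 between AT1G17350 and AT1G17360 were 184 and 157 kb from theirs. On chromosome 5, position 20077677 in AT5G49500 was 172 kb and position 19713438 in AT5G48610 was 136 kb from its nearest listed SNP.

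Isolated SNPs within dense windows mostly had a listed SNP within 20 kb on the nearer side, but some bordered long gaps on the other. The 88 had a median distance of 13 kb to the nearest listed SNP, and 16 of them were over 20 kb from it. The greatest was 50.7 kb, at position 4442851 of chromosome 2 in the pseudogene AT2G11180. Next came 50.1 kb at 14376757 of chromosome 5 and 47.2 kb at 6992880 of chromosome 3, both outside annotated genes. On the farther side, the gap was 177 kb at 3338190 of chromosome 2, 141 kb at 14376757 of chromosome 5 and 103 kb at 5182864 of chromosome 3. Chromosome 2 held 30 of the 88, chromosome 3 held 21, chromosome 5 held 18, chromosome 1 held 12 and chromosome 4 held 7. The dense windows with the most, 4 each, started at 26500001 on chromosome 1 and at 5000001 and 9000001 on chromosome 2.

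Isolated SNPs were less often inside protein-coding genes than that sequence's share of the genome, as were the other listed SNPs. Protein-coding genes, taken from start to end with introns and untranslated regions, held 284 isolated SNPs, or 40.3% (36.7 to 44.1), against 44.5% (44 to 45) of the other listed SNPs, and made up 54.1% of the sequence. Outside every annotated gene lay 366 isolated SNPs, or 52% (48.2 to 55.7), against 44.6% (44.1 to 45) of the others and 35.9% of the sequence. Pseudogenes held 45 isolated SNPs, or 6.39% (4.7 to 8.46), against 9.54% (9.25 to 9.83) of the others and 8.69% of the sequence. Within each density class the isolated share was the higher one, with 5.43% (3.44 to 8.11) against 3.32% (2.07 to 5.03) in sparse windows, 4.74% (2.3 to 8.54) against 2.51% (2.01 to 3.1) in intermediate and 14.8% (8.11 to 23.9) against 10.3% (9.99 to 10.6) in dense windows. Outside the centromeres it was the lower one, 1.49% (0.681 to 2.8) against 3.03% (2.84 to 3.23), where pseudogenes made up 3.37% of the sequence. On chromosome 3, 22 isolated SNPs lay in pseudogenes, or 17.9% (11.6 to 25.8), against 2.14% (1.86 to 2.45) of its other SNPs. The isolated share was also the higher one on chromosome 1, 4.24% (2.05 to 7.65) against 1.46% (1.14 to 1.84). It was the lower one on chromosome 2, 12.3% (5.08 to 23.7) against 15.7% (14.9 to 16.6). The same order held on chromosome 4, 1.41% (0.171 to 5) against 14.8% (13.9 to 15.6), and on chromosome 5, 2.74% (0.751 to 6.87) against 12.4% (11.8 to 13). Other annotated genes, mostly noncoding RNAs, held 9. SNPs in pairs apart from all others had nearly the same distribution as isolated ones, with 40.9% (37 to 44.8) in protein-coding genes and 52.2% (48.2 to 56.1) outside annotated genes. No test was made between these shares, because neighbouring SNPs are inherited together and do not count as replicates.

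The gene share of isolated SNPs was below that of the other listed SNPs in each density class, but not on each chromosome. In sparse windows, 39.5% (34.7 to 44.5) of isolated and 43.3% (39.4 to 47.2) of other SNPs lay in protein-coding genes, with overlapping intervals. In intermediate windows the shares were 44.1% (37.3 to 51.1) and 53.1% (51.4 to 54.8). In dense windows they were 35.2% (25.3 to 46.1) and 43.7% (43.2 to 44.2), again with overlapping intervals. By chromosome, isolated SNPs had the lower share on chromosome 1, 41.5% (35.2 to 48.1) against 52.6% (51.2 to 54), and on chromosome 3, 22.8% (15.7 to 31.2) against 54.2% (53.2 to 55.2). They had the higher share on chromosome 4, 44.4% (36 to 52.9) against 33.5% (32.4 to 34.6), and on chromosome 5, 47.3% (38.9 to 55.7) against 38.4% (37.5 to 39.3). On chromosome 2 the shares were 45.6% (32.4 to 59.3) and 46.3% (45.1 to 47.5). Without the 2 Mb either side of the centromeres, 45.7% (41.7 to 49.8) of isolated and 52.8% (52.2 to 53.3) of other SNPs were in protein-coding genes, which made up 62.4% of the sequence there. By distance to the nearest listed SNP, the share was 39.2% (34.6 to 43.9) at 10 to 20 kb, 44.7% (37.7 to 51.7) at 20 to 50 kb and 33.3% (21.1 to 47.5) over 50 kb, with overlapping intervals and no order along the distance.

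**Figure D5:**
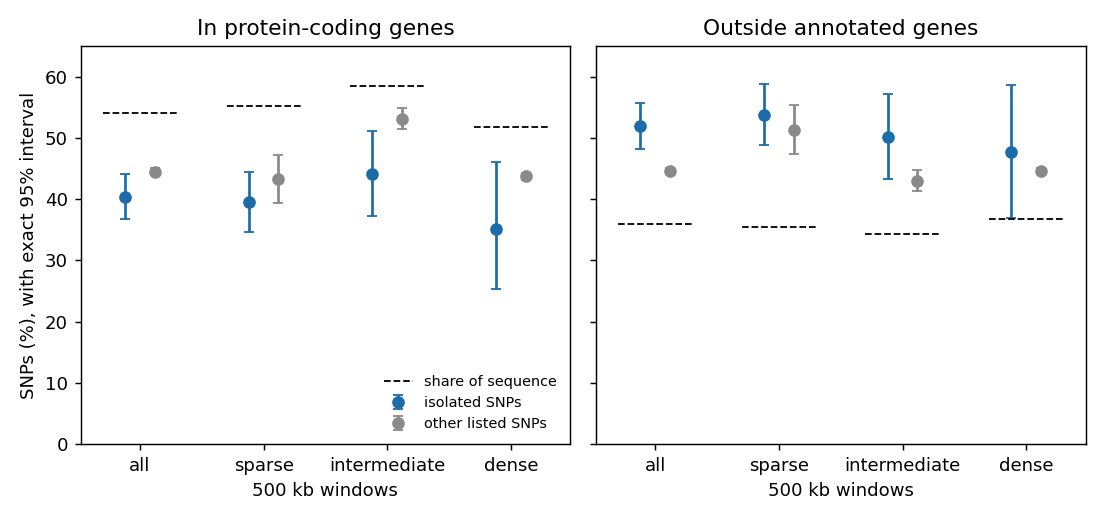
Share of isolated SNPs (blue) and of the other listed SNPs (grey) in protein-coding genes and outside every annotated gene, with exact binomial 95% intervals, for all windows and for each density class; dashed lines give the share of the sequence. Isolated SNPs lie below the line for protein-coding genes in every class and above it outside annotated genes, although in dense windows the lower bound there, 37%, is close to the line at 36.8%.

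The distance from isolated SNPs outside annotated genes to the nearest protein-coding gene was close to that of the other listed SNPs outside genes, with medians of 777 and 823 bp. Within 1 kb of a protein-coding gene lay 57.4% (52.1 to 62.5) of them, against 55.4% (54.7 to 56.2) of the others. In sparse windows the medians were 923 bp for isolated and 719 bp for other SNPs, and 54.1% (47.3 to 60.9) against 59.1% (53.5 to 64.5) lay within 1 kb. The order was turned round in dense windows, where 42 isolated SNPs lay outside genes. There the medians were 639 and 856 bp, and 66.7% (50.5 to 80.4) against 54.3% (53.6 to 55.1) lay within 1 kb. Away from the centromeres the medians were 665 and 606 bp, and 63.9% (58.3 to 69.2) against 66.3% (65.5 to 67.1) lay within 1 kb.

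Across 27444 protein-coding genes, 290 (1.06%, 0.939 to 1.18) held an isolated SNP, whereas 8004 (29.2%) held any listed SNP. A SNP in overlapping genes was counted for each, which applied to 7 isolated SNPs. Genes with an isolated SNP had a median length of 2.73 kb, against 2.45 kb for the other genes with a listed SNP and 2.08 kb for all protein-coding genes. Isolated SNPs lie over 10 kb apart by the rule, so only a gene longer than 10 kb could hold more than 1. The only gene that did was ATM (AT3G48190) on chromosome 3, which encodes a kinase of the response to DNA double-strand breaks. Its annotated length was 27.3 kb, and its SNPs at 17804406 and 17814647 were 10.2 kb apart and the only listed SNPs in it.

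No gene of 6 lists on auxin signalling, auxin transport, root development and Ler marker loci held an isolated SNP. This was 0 of 92 genes. A floor of 3 counts among 92 genes, which is not a Clopper-Pearson bound, is a share of 3.26%. That is above the 1.06% of all protein-coding genes, so the count of 0 does not show a lack. Among these genes 29 held listed SNPs that had a neighbour within 10 kb. For 25 of the 92 (27.2%), the closest listed SNP lay outside the gene and was an isolated one, against 24.5% of all protein-coding genes. An isolated SNP lay within 10 kb of 8 of the 92 (8.7%), against 12.4% of all protein-coding genes.

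Auxin response factors, the transcription factors that bind auxin-responsive promoters, had an isolated SNP as their closest in 10 of 23 cases (43.5%). The share over all protein-coding genes was 24.5%, and the difference was not tested. Of the 10, ARF5, ARF6, ARF15, ARF19, ARF21, ARF22 and ARF23 lie in the first 21 Mb of chromosome 1, where listed SNPs were scarce. The closest SNP of ARF21 and of ARF22 was the same one, at 12564343. ARF15 had one 1.3 kb away at 13087126 on chromosome 1, ARF16 one 1.74 kb away at 14701327 on chromosome 4, inside the run of 12, and ARF22 and ARF6 had one 5.26 and 5.51 kb away. Aux/IAA proteins, repressors that auxin sends for degradation, had an isolated SNP as their closest in 9 of 29 cases (31%), against the same 24.5%. The distance was 1.92 kb for IAA15, 7.81 kb for IAA5, 9.05 kb for IAA9, 31.3 kb for IAA6 and 91.3 kb for IAA18. For IAA6 it was the SNP in AT1G52720, and for IAA18 the one at 19398860 that closes the longest gap.

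For the auxin receptors this was 1 of 6 (16.7%), against 24.5% of all protein-coding genes. It was AFB4, an F-box protein, at 14.2 kb. For auxin transport the count was 1 of 14 (7.14%), ABCB19, an auxin efflux transporter, with an isolated SNP 1.08 kb away at 10878654 on chromosome 3. Lateral root and root meristem genes had 4 of 16 (25%), close to the 24.5% of all protein-coding genes. These were LBD29, SHR, PLT2 and PLT7, at 77.3, 37.6, 418 and 25.5 kb. SHR is a transcription factor of root radial patterning, and PLT2 and PLT7 are PLETHORA transcription factors of root growth. None of the 4 Ler marker loci had one.

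Outside these lists, isolated SNPs lay in a number of well-studied genes, named here after their positions were seen and with nothing known of the base change. TAA1, an aminotransferase of auxin synthesis, held one at 26605639 on chromosome 1 in a dense window, 14.4 kb from its nearest neighbour. GN, the ARF-GTPase exchange factor GNOM that is needed for the placement of PIN auxin carriers, held one at 4788514 on chromosome 1, 17.5 kb from its nearest neighbour. SHI, a zinc finger protein of the SHORT INTERNODES family, held one at 26504446 on chromosome 5, 48.3 kb from its nearest neighbour. CUC2 and LEC2, transcription factors of organ boundaries and of embryo development, held one each, 12.8 and 11.2 kb from the nearest listed SNP. So did the receptor kinase PSKR1, which binds the peptide phytosulfokine, at 10.7 kb, and the karrikin receptor KAI2 at 19.9 kb. Further examples were the helicase RECQ4A, at 32.4 kb, the meiotic cohesin SYN1, at 10.6 kb, and the histone deacetylase HDA6, at 12.8 kb. The remodelling ATPase BRM held one at 13.5 kb, the nitrate transporter NRT2:1 at 23.8 kb, and PHF1, which is needed for the traffic of phosphate transporters, at 31.5 kb. These are single examples among the 290 genes and stand for no gene group.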

How the data were processed

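The table analysed gives a chromosome and a SNP position per row for chromosomes 1 to 5, and the values the authors deposited are positions in bp with no other quantity. Per the submitters' processing notes the build was TAIR10, and per the series' design text SNPs were identified with SNPtrack. How reads were aligned, and what made a site homozygous, is not given in the sources used here. Read depth is unknown. In the position columns, 5 cells that held no number were left out.

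The members and lists were chosen with earlier results of these data known. Isolated SNPs, windows of 500 kb (the last of each chromosome ends at its last listed SNP), groups and runs were computed with Python 3.11.15, numpy 2.4.6 and scipy 1.17.1; the rule was tested on simulated data. Shares carry exact Clopper-Pearson and densities exact Poisson 95% intervals, for counting error only. Rounded centromere positions were 15, 4, 14, 4 and 12 Mb. Gene models were those of RefSeq for TAIR10.1, which keeps the nuclear sequences of TAIR10, and no gene coordinates are printed. Moving the positions by 3000 bp in either direction raised the share of isolated SNPs in protein-coding genes to 57% and 54.1%, and that of the other SNPs to 51% and 50.3%.

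Named by rule were the 10 most isolated SNPs, the 3 nearest on each side of the threshold, the SNPs at the longest gaps, genes with 2 or more isolated SNPs and members of the gene lists. All 92 list genes were matched by locus identifier. Reference bases, coding sequence and repeated flanks were not analysed here.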

Additional observations from a re-analysis of the deposited data

How the results depend on the processing

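No paired analysis was possible because there is only 1 list of positions. No column or defined label ties it to either of the 2 pools. The number of isolated SNPs was 1635 at 5 kb and 260 at 20 kb, against 704 at 10 kb. It changed by less than 1.5 times when distances of exactly 10000 bp counted, when end SNPs were left out and when SNPs within 100 bp were merged first. At 5 kb, chromosomes 1, 2 and 4 held 26.4%, 17.2% and 16.5% of isolated SNPs. At 20 kb, chromosomes 1, 2, 3 and 5 held 42.3%, 4.23%, 10.8% and 24.2%. Chromosome 1 held the most at each of these distances. Sparse windows held the largest class share at 10 and 20 kb, but at 5 kb the classes were nearly level. The sparse, intermediate and dense shares at 5 kb were 34.4% (32.1 to 36.8), 33% (30.7 to 35.4) and 32.5% (30.3 to 34.9), with overlapping intervals. At 20 kb they were 80.4%, 13.5% and 6.15%. Windows of 250 and 1000 kb gave sparse shares of 49% and 61.8% and intermediate shares of 39.6% and 23.6%. Calling windows sparse under 10% or 50% of the median gave sparse shares of 21.7% and 75.9% and intermediate shares of 65.8% and 11.6%, so at 10% the intermediate class was largest. Without chromosomes 1, 2 and 3 in turn the sparse share was 47.4%, 61.4% and 63.5%. Without chromosome 1 the intermediate and dense shares were 36.3% and 16.2%, without chromosome 3 the intermediate share was 25%, and without chromosome 2 the dense share was 8.96%. The share in protein-coding genes was 45.7% at 5 kb, 45.7% without the centromeres, 35.2% in dense windows, and 57% and 54.1% with positions moved by 3000 bp. The causes were not tested. Merging SNPs first, for shares, and moving the positions were chosen after seeing the data. Alternatives for reference bases, coding sequence and repeated flanks were not run, because no genome sequence was used here. With depth unknown, an isolated SNP may have neighbours that were not callable.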
